A study of Bos taurus with 30 samples.

Results

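The genes described here are the ligands and receptors of the epidermal growth factor (EGF) family: AREG, EREG, HBEGF, TGFA, BTC and EGF, which encode ligands, and EGFR, ERBB2, ERBB3 and ERBB4, which encode the ERBB receptors. Members were chosen by gene name, as the rows whose Entrez gene ID maps to these cattle symbols, and all 10 were found among the 35092 genes of the count table. The family was proposed with results of these same counts in view, and which values prompted it was not recorded. Adjusted p-values of the members are therefore given as a description of these libraries and are not independent evidence.

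Bovine embryos were collected at day 15 of gestation, when the conceptus elongates, and the embryonic disc (ED), which gives rise to the fetus, was sequenced apart from the extraembryonic membranes (EEM). In vitro produced (IVP) embryos came from slaughterhouse oocytes that were matured, fertilized and cultured without serum, and were placed in recipient cows on day 7. In vivo (IVV) embryos grew in superovulated, inseminated donors. The question was how the procedure of production alters the transcriptome of each tissue. The series held 7 IVP and 9 IVV libraries of the ED and 6 IVP and 8 IVV libraries of the EEM, and 13 embryos (5 IVP and 8 IVV) gave both tissues. No genotype, breed, sex or morphology is given per library in the labels. The uterus that held the embryos differed between procedures (recipients against superovulated donors), so the procedure and the cows cannot be told apart.

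EGF family ligands are made as membrane-bound precursors that are cut free by ADAM proteases, and they bind receptor tyrosine kinases that pair up on the cell surface. EGFR binds EGF, TGFA and AREG. HBEGF, BTC and EREG bind EGFR and ERBB4, and the neuregulins (NRG1 to NRG4) bind ERBB3, ERBB4 or both. ERBB2 has no known ligand and ERBB3 has little kinase activity, so both act mainly through their partners. The paired receptors signal through RAS, ERK, PI3K and STAT proteins. In ruminant pregnancy the family is known from the trophoblast, the outer epithelium that faces the uterus, and from the uterine lining.

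Library totals ran from 48713218 to 63037371 counts. The epiblast markers POU5F1 and NANOG stood at medians of 68.7 and 12.8 CPM (counts scaled to library size with TMM factors) in the IVV discs and at 1.22 and 0.0188 CPM in the IVV EEM. In IVP embryos the medians were 29.3 and 6.86 CPM in discs and 1.59 and 0 CPM in EEM. SOX2 was listed at 0 in every library, as were GRB7, SPRY4 and CCND1 of the pathway lists, so a 0 throughout is given here only as listed. The disc libraries also carried trophoblast RNA: the summed level of 15 trophoblast markers had a median of 32533 CPM in IVV discs against 45729 CPM in IVV EEM. Of the 13 embryos with both tissues, 12 had ED and EEM deviations from their group means that correlated best with each other across genes. IVPF13 was the exception (r of -0.24), so the fits that compare tissues below were also run without it. Correlations between tissues and counts of embryos below kept IVPF13. In a RefSeq annotation of a later assembly, TGFA, EGF, ERBB3 and ERBB4 overlap non-coding genes or pseudogenes. The libraries carry no strand, so reads of such overlaps cannot be assigned with certainty.

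All members other than BTC passed the filter on low counts in every comparison. In the ED, BTC passed it only through the IVV discs. In the ED, IVP against IVV, 2 of 10 members were called at an adjusted p under 0.05 with edgeR's quasi-likelihood test, BTC and TGFA, both lower in IVP. The background was 6.34% of 15733 genes called (4.95% lower and 1.40% higher). In the EEM, 0 of 9 members tested were called with edgeR, and 1 had an unadjusted p under 0.05. DESeq2 and limma voom also called 0. The background there was 3.81% of 14718 genes (1.52% lower, 2.29% higher). Between the tissues of the same embryos, 1 of 9 members was called, AREG, lower in ED, against a background of 21.0% of 14898 genes (12.8% higher and 8.16% lower in ED). The members' median log2 fold change was -0.05 in the ED, 0.14 in the EEM and -0.05 between tissues, beside -0.01, 0.00 and -0.08 over all genes tested.

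**Figure D1:**
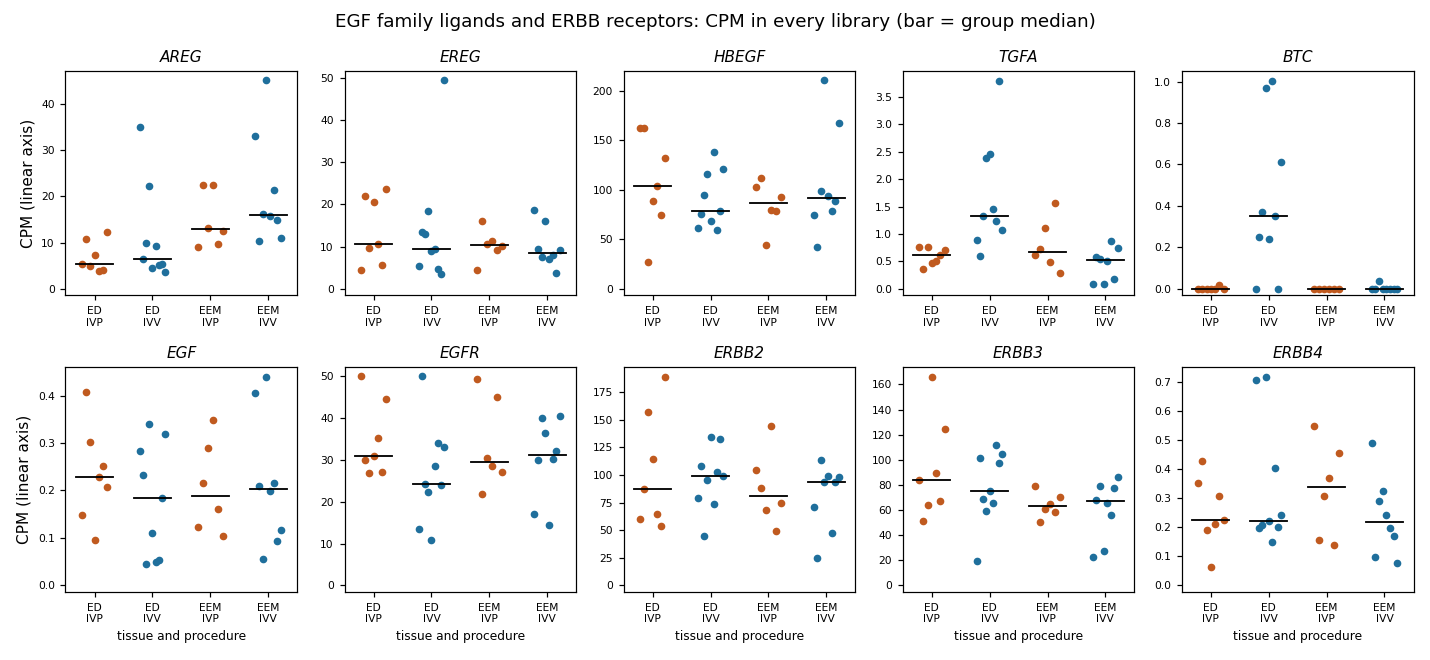
Levels of the 10 members in all 30 libraries, in CPM on linear axes, with each point a library, orange for IVP and blue for IVV, and a bar at the group median. BTC was above 0.1 CPM in 7 of the 9 IVV discs and in no other library, and TGFA reached 3.80 CPM in an IVV disc against a highest value of 0.765 CPM among IVP discs.

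BTC encodes betacellulin, a ligand of EGFR and ERBB4. In the 7 IVP discs its counts were 0 in 6 libraries and 1 in IVPF14. In the 9 IVV discs the counts ran from 0 to 61 with a median of 20. Those at 0 were VE19 and VE5, and the other 7 held at least 15 counts. Thus the groups overlapped only through these VE19 and VE5 discs. The EEM held 0 counts in all 6 IVP libraries, and among the 8 IVV libraries it held 2 counts in VE26 and 0 in the rest. BTC transcripts were thus found at more than 3 counts only in the disc of IVV embryos, at a mean of 0.421 ± 0.371 CPM (SD, n = 9).

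With a floor of 3 counts per library, BTC was at least 7.63-fold higher in IVV than in IVP discs and at least 7.15-fold higher in IVV discs than in IVV EEM. A library of this depth with 0 counts allows up to about 0.06 CPM, a limit that covers counting error only. The edgeR fit gave an adjusted p of 0.00079 in the ED, and its log2 fold change of -6.45 (SE 1.10) depends on the prior count. BTC passed the filter only through the IVV discs, and leaving out any of the 7 discs that expressed it took it below the filter. In the EEM it was too low to be tested. In these bulk samples, fewer cells of a type and less RNA per cell cannot be told apart.

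TGFA encodes transforming growth factor alpha, a ligand of EGFR. Its level in IVP discs ran from 0.362 to 0.765 CPM with a median of 0.617. In IVV discs it ran from 0.598 to 3.80 CPM with a median of 1.33. The discs of VE24 (0.598 CPM) and VE19 (0.888 CPM) were the lowest of the IVV group, and VE24 alone lay within the IVP range. Expression was 2.98-fold lower in IVP discs (log2 fold change -1.58, SE 0.38, adjusted p = 0.0122 with edgeR). The difference was called in 9 of 9 alternative settings and in 15 of 16 fits with an embryo left out. Without VE5, the disc with the most TGFA (247 counts), the log2 fold change was -1.28 and the adjusted p 0.0519.

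In the EEM, TGFA ran from 0.280 to 1.56 CPM with a median of 0.669 in IVP and from 0.0855 to 0.877 CPM with a median of 0.527 in IVV embryos. The fitted difference had the opposite sign (log2 fold change 0.88, SE 0.42, adjusted p = 0.357 with edgeR). It was 0.31 without VE19, whose EEM held 4 counts. TGFA was higher in the disc than in the EEM in 8 of 8 IVV embryos and in 2 of 5 IVP embryos, with a log2 fold change of 1.06 over all embryos (SE 0.44, adjusted p = 0.0902 with edgeR). In VE24 both tissues held 36 counts (0.598 CPM in the disc, 0.580 CPM in the EEM), so its sign rests on scaling. In IVPF13 the disc was higher by only 0.096 in log2 CPM. The difference between the IVP effects in the tissues was -2.59 on the log2 scale (SE 0.63), with an adjusted p of 0.0536 in edgeR's test of the interaction. With DESeq2 the adjusted p of this interaction was 0.00432. The background of the interaction was 1.02% of 16784 genes called, and 0 of 10 members were called with edgeR, 1 of them with an unadjusted p under 0.05.

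AREG encodes amphiregulin, a ligand of EGFR that is released by ADAM17. It was lower in the disc than in the EEM in 12 of 13 embryos. In discs it ran from 3.83 to 12.2 CPM with a median of 5.26 in IVP embryos and from 3.64 to 35.1 CPM with a median of 6.51 in IVV embryos. In the EEM the range was 9.11 to 22.6 CPM with a median of 12.8 in IVP embryos and 10.4 to 45.2 CPM with a median of 15.97 in IVV embryos. VE19 was the exception, with 35.1 CPM in the disc and 33.1 CPM in the EEM, and this disc and that of VE28 (22.4 CPM) lay above the other discs. Within embryos AREG was 2.18-fold lower in ED (log2 fold change -1.12, SE 0.16, adjusted p = 2.57e-05 with edgeR and embryo as block). It was called in 6 of 6 alternative settings and in 13 of 13 fits with an embryo left out, in which the log2 fold change ran from -1.23 to -1.02. IVP and IVV embryos overlapped in both tissues, with log2 fold changes of -0.31 (SE 0.43) in discs and -0.36 (SE 0.25) in the EEM and adjusted p-values of 0.796 and 0.639 (edgeR).

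**Figure D2:**
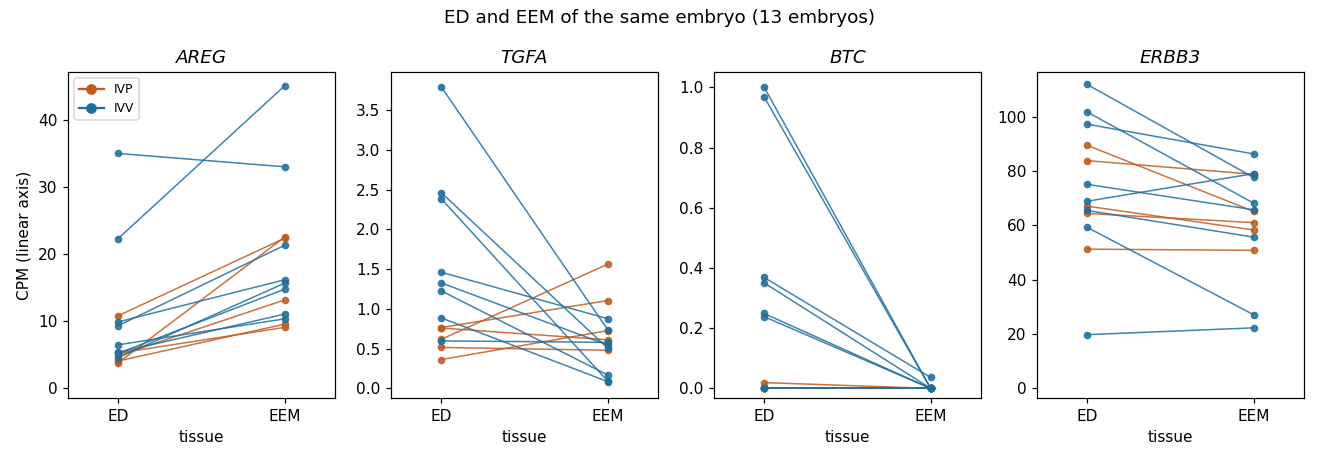
CPM of AREG, TGFA, BTC and ERBB3 in the ED and EEM of the 13 embryos with both tissues, on linear axes, each line an embryo, orange for IVP and blue for IVV. AREG rose from disc to EEM in every embryo but VE19, and TGFA fell from disc to EEM in 8 of 8 IVV embryos and in 2 of 5 IVP embryos. In VE24 the fall of TGFA was only from 0.598 to 0.580 CPM.

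HBEGF, EREG and EGF did not pass the test in any comparison. HBEGF encodes heparin-binding EGF-like growth factor. Its level ran from 26.9 to 162 CPM (median 103) in IVP discs, from 59.5 to 138 CPM (median 78.9) in IVV discs, from 44.6 to 111 CPM (median 86.3) in IVP EEM and from 42.2 to 211 CPM (median 91.2) in IVV EEM. The groups overlapped throughout. The IVP against IVV log2 fold change was 0.22 (SE 0.28) in the ED and -0.31 (SE 0.29) in the EEM, and that of ED against EEM was -0.05 (SE 0.16).

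EREG encodes epiregulin. Its level ran from 4.33 to 23.7 CPM (median 10.5) in IVP discs and from 3.52 to 49.4 CPM (median 9.44) in IVV discs. In the EEM it ran from 4.38 to 16.2 CPM (median 10.4) in IVP and from 3.75 to 18.7 CPM (median 8.53) in IVV embryos. These groups overlapped as well. The log2 fold changes were -0.06 (SE 0.46) for the procedure in the ED, 0.20 (SE 0.26) in the EEM and -0.06 (SE 0.19) between tissues.

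EGF transcripts were close to the limit of detection, with between 3 and 21 counts in each of the 30 libraries. The medians were 12 counts in IVP and in IVV discs, 9.5 in IVP EEM and 10.5 in IVV EEM. With so few counts the standard errors were wide, and the log2 fold changes were 0.44 (SE 0.47) in the ED, 0.17 (SE 0.43) in the EEM and -0.15 (SE 0.27) between tissues.

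Of the receptors, 0 of 4 were called in any comparison with edgeR. At an unadjusted p under 0.05 there were 0 in the ED, 0 in the EEM, 0 in the interaction and 1 between tissues, ERBB3, which DESeq2 called. Limma voom, run within each tissue, called 0. EGFR ran from 26.8 to 50.2 CPM (median 31.0) in IVP discs and from 10.95 to 49.999 CPM (median 24.1) in IVV discs, with the discs of VE29 and VE19 lowest. In the EEM it ran from 21.9 to 49.4 CPM (median 29.6) in IVP and from 14.4 to 40.6 CPM (median 31.3) in IVV embryos. The log2 fold changes were 0.35 (SE 0.24) in the ED, 0.13 (SE 0.24) in the EEM and -0.16 (SE 0.13) between tissues.

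ERBB2, the receptor without a known ligand, ran from 54.0 to 189 CPM (median 87.1) in IVP discs and from 44.8 to 134 CPM (median 99.3) in IVV discs. In the EEM it ran from 48.9 to 144 CPM (median 81.1) in IVP and from 24.4 to 114 CPM (median 93.4) in IVV embryos. All these ranges overlapped, and the fitted log2 fold changes were -0.04 (SE 0.26) in the ED, 0.14 (SE 0.28) in the EEM and 0.17 (SE 0.22) between tissues.

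ERBB3, a receptor of neuregulins, ran from 51.2 to 166 CPM (median 83.8) in IVP discs, from 19.8 to 112 CPM (median 75.1) in IVV discs, from 50.8 to 78.8 CPM (median 63.1) in IVP EEM and from 22.3 to 86.3 CPM (median 67.0) in IVV EEM. The disc of VE19, at 19.8 CPM, lay far below the other discs. It was higher in the disc than in the EEM in 11 of 13 embryos (log2 fold change 0.27, SE 0.10, adjusted p = 0.0743 with edgeR). DESeq2 gave an adjusted p of 0.0413. The log2 fold changes for the procedure were 0.11 (SE 0.21) in the ED and 0.11 (SE 0.20) in the EEM.

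ERBB4, which binds neuregulins and several EGFR ligands, was low, with between 4 and 40 counts per library. Its medians were 13 counts in IVP discs, 14 in IVV discs, 17 in IVP EEM and 11 in IVV EEM. The log2 fold changes were -0.25 (SE 0.39) in the ED, 0.68 (SE 0.43) in the EEM and 0.35 (SE 0.28) between tissues.

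**Figure D3:**
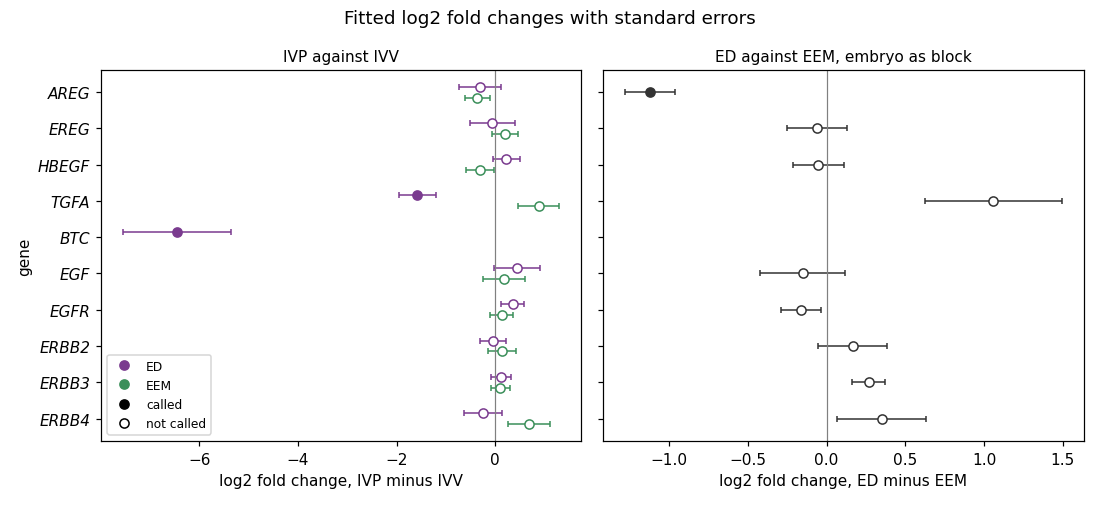
Log2 fold changes of the members with bars of 1 standard error, for IVP against IVV in the ED (purple) and EEM (green) on the left and for ED against EEM on the right. Filled points were called at an adjusted p under 0.05: BTC (-6.45) and TGFA (-1.58) in the ED, and AREG (-1.12) between tissues, where BTC was not tested. Standard errors were derived from the F statistic of each test. BTC passed the filter only through the IVV discs, and its fold change depends on the prior count.

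Levels of the members in ED and EEM of the same embryo were set against each other for the 9 members that the EEM expressed, over 13 embryos, after subtracting the IVP or IVV mean. Embryos kept their order best for ERBB3, with Pearson's r of 0.84 (permutation p = 0.00035, adjusted p = 0.00315 over the 9 relations) and Spearman's rho of 0.81 (permutation p = 0.00284, adjusted p = 0.0256). Without VE19 and VE28, which had the lowest ERBB3 in the EEM, r was 0.67. AREG had r of 0.75 (permutation p = 0.00795, adjusted p = 0.0358) but rho of 0.44 (permutation p = 0.161, adjusted p = 0.291), and r fell to 0.42 without VE28 and VE19, so this relation rested on those embryos. VE19 and VE28 had the 2 highest AREG levels and the 2 lowest ERBB3 levels of the EEM. EGFR had r of 0.63 (permutation p = 0.033, adjusted p = 0.0594) and rho of 0.18 (permutation p = 0.557, adjusted p = 0.557), and r was -0.0041 without VE29 and VE19. EGF had r of 0.71 (permutation p = 0.019, adjusted p = 0.0575) and rho of 0.71 (permutation p = 0.0136, adjusted p = 0.0612). Its r was 0.50 without VE26 and VE28. HBEGF had r of 0.54 (permutation p = 0.0302, adjusted p = 0.0594) and rho of 0.56 (permutation p = 0.0526, adjusted p = 0.158). Its r was 0.65 without VE28 and VE24. Among EREG, TGFA, ERBB2 and ERBB4 the adjusted p of r was lowest for EREG, at 0.157.

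The other ligands of the family were followed by name. EPGN (epigen) was listed at 0 in every library. In the RefSeq annotation EREG, AREG and BTC are consecutive protein-coding genes that follow EPGN. NRG1 held between 0 and 22 counts in IVP discs (median 5) and between 1 and 387 in IVV discs (median 112), with VE19 the lowest of the IVV discs. It was lower in IVP discs (log2 fold change -4.12, SE 0.69, adjusted p = 0.000587 with edgeR) and was called in each of 8 alternative settings and 16 fits with an embryo left out. With at least 10 counts in every library it was not tested. NRG1 passed the filter on low counts only through the IVV discs, where it is higher, so its call is a description and not independent evidence. In the EEM, NRG1 held at most 16 counts per library and was not tested. NRG2, NRG3 and NRG4 were not called in any comparison, and their medians per group ran from 27.2 to 41.8 CPM, from 0.456 to 1.10 CPM and from 0.945 to 1.05 CPM.

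Markers of mesoderm, the germ layer that forms in the disc at gastrulation, were also lower in IVP discs, as were 2 of epiblast. All 9 mesoderm markers that could be tested were called lower in IVP discs with edgeR, beside 4.95% of all genes. The mean log2 CPM of the mesoderm list ran from -2.08 to -0.535 in IVP discs and from 0.542 to 3.17 in IVV discs. Markers this low in IVP discs may have passed the filter only through the IVV discs, which was not examined. These calls are therefore a description and not independent evidence. The summed level of 10 mesoderm markers, among them TBXT, MIXL1 and KDR, ran from 7.87 to 17.5 CPM in IVP discs and from 34.8 to 170 CPM in IVV discs. In the EEM it ran from 1.90 to 7.74 CPM in IVP and from 4.14 to 10.6 CPM in IVV embryos. Of the epiblast markers, 7 were tested in discs and 2 were lower in IVP with edgeR, POU5F1 (log2 fold change -1.72, SE 0.36, adjusted p = 0.00479) and PRDM14 (-1.95, SE 0.40, adjusted p = 0.00411). DESeq2 called 4 and limma voom 3, counted in either direction. Of the 7 fitted changes in edgeR, 5 were below 0 and 2 above 0, with a median of -0.28 and a highest of 1.19. The summed level of the 9 epiblast markers ran from 179 to 474 CPM in IVP and from 155 to 857 CPM in IVV discs, with SOX2 at 0 in both. Of the trophoblast markers 0 of 15 were called in either tissue with edgeR, DESeq2 or limma voom. Fitted changes were above 0 for 13 of them in discs (median 0.32) and for 11 in EEM (median 0.26), and unadjusted edgeR p-values lay under 0.05 for 0 of them in discs and for 2 in EEM.

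Within the 9 IVV discs, TGFA rose with the mean log2 CPM of the mesoderm list (Pearson's r 0.845, exact permutation p = 0.00454, adjusted p = 0.0227; Spearman's rho 0.867, exact permutation p = 0.00451, adjusted p = 0.0225). Without VE19 and VE5, the discs farthest from the median of the list, r was 0.796. These relations were chosen after the values were seen, and 5 were computed. NRG1 had r of 0.661 (exact permutation p = 0.0441, adjusted p = 0.11) and rho of 0.60 (exact permutation p = 0.0968, adjusted p = 0.242) in the same discs. Its r without VE19 and VE5 was 0.421. BTC had r of 0.14 (exact permutation p = 0.712, adjusted p = 0.712) and rho of 0.083 (exact permutation p = 0.843, adjusted p = 0.843), and its r without VE19 and VE5 was 0.27. VE5 had the highest mesoderm level and the most TGFA, yet 0 counts of BTC, whereas VE19 had the lowest mean log2 CPM of the mesoderm list among the IVV discs (VE24 had the lowest summed CPM), 44 counts of TGFA, 1 of NRG1 and 0 of BTC. Within the 7 IVP discs, r was 0.407 for TGFA (exact permutation p = 0.376, adjusted p = 0.471; rho 0.464, exact permutation p = 0.302, adjusted p = 0.378) and 0.456 for NRG1 (exact permutation p = 0.296, adjusted p = 0.471; rho 0.571, exact permutation p = 0.20, adjusted p = 0.333). Without IVPF13 and IVPF15 these r were 0.335 and 0.538. The part of mesoderm or epiblast content in the lower BTC, TGFA and NRG1 of IVP discs was not tested.

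**Figure D4:**
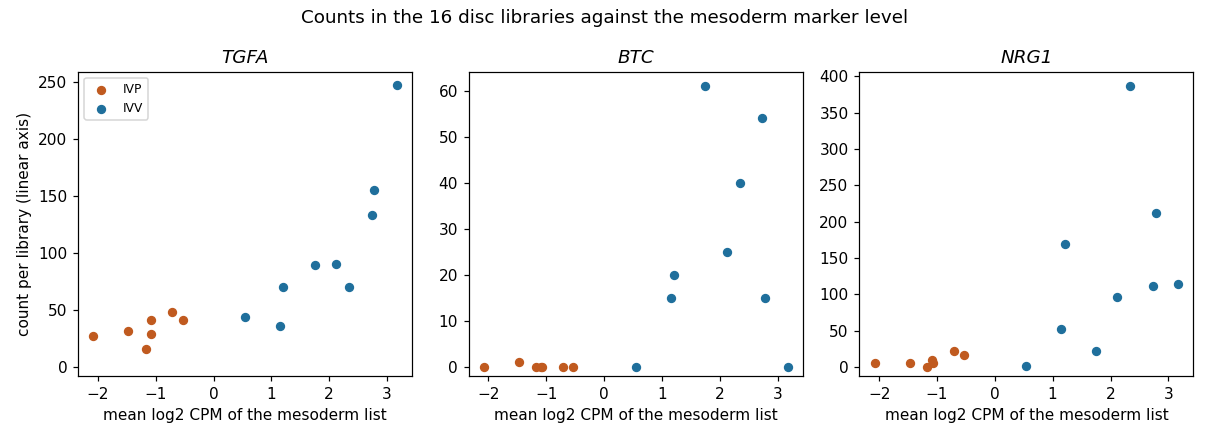
Counts of TGFA, BTC and NRG1 (linear axes) in the 16 disc libraries against the mean log2 CPM of the mesoderm markers, orange for IVP and blue for IVV. TGFA climbed to 247 counts at the highest mesoderm level, where BTC held 0 counts.

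The genes around the receptors were taken as lists, which were written with earlier results of these data known. Of 12 genes for ligand shedding and trafficking, 11 were tested in the ED and 1 was called, the protease ADAM19, higher in IVP discs (log2 fold change 0.91, SE 0.24, adjusted p = 0.025 with edgeR). Over all genes 6.34% were called there, so 1 call in 11 is near that share. ADAM19 missed the threshold with limma voom (adjusted p = 0.0625). In edgeR it also missed it with 2 surrogate variables (adjusted p = 0.0539), without IVP14 (0.055) and without IVPF14 (0.0599). ADAM17, the main sheddase of AREG and TGFA, was not called in any comparison. In the EEM 12 were tested and 1 was called, beside 3.81% of all genes. It was ADAM12, with 0 to 1 count per library in IVP and 0 to 37 in IVV embryos (median 20.5). All 6 IVP libraries were at or under the floor of 3 counts, so ADAM12 passed the filter only through the IVV EEM and its fitted fold change is not given. Between tissues 1 of 11 was called, beside 21.0% of all genes. ADAM19 was higher in ED than in EEM (log2 fold change 1.15, SE 0.10, adjusted p = 9.6e-08 with edgeR).

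Among 33 genes of ERBB signal transduction, 32 were tested. In the ED 1 was called, the transcription factor gene STAT5A, lower in IVP (log2 fold change -1.21, SE 0.37, adjusted p = 0.0494 with edgeR), and with limma voom it was not (adjusted p = 0.0983). This 1 call in 32 stands beside 6.34% of all genes. In the EEM 0 were called by edgeR, DESeq2 or limma voom, with 1 at an unadjusted p under 0.05 in edgeR. Between tissues 10 were called, 5 higher and 5 lower in ED, beside the 21.0% called over all genes. STAT5A (log2 fold change 2.701, SE 0.30), STAT5B (1.299, SE 0.18), PLCG1, the gene of phospholipase C gamma (0.89, SE 0.18), and STAT3 (1.15, SE 0.25) had the smallest p-values, with adjusted p of 1.49e-06, 1.82e-05, 0.000945 and 0.00249 in edgeR. The list's median was -0.10 beside -0.08 over all genes.

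Of 20 negative regulators of ERBB signaling 19 were tested, and 0 were called in the ED with edgeR, DESeq2 or limma voom (2 had an unadjusted p under 0.05 with edgeR). In the EEM 1 was called, ZFP36, whose protein promotes decay of short-lived mRNAs, and it was lower in IVP (log2 fold change -1.31, SE 0.24, adjusted p = 0.00138 with edgeR). The share over all genes in the EEM was 3.81%. Between tissues 5 of 19 were called, 4 higher in ED and 1 lower, a share near the 21.0% of all genes. LRIG3, which encodes a membrane protein of a family that restrains receptor tyrosine kinases, was higher by 1.77 on the log2 scale (SE 0.23). SPRY2, SPRED1 and DUSP6, inhibitors of the RAS and ERK cascade, were higher by 0.99 (SE 0.14), 0.59 (SE 0.12) and 0.48 (SE 0.11). The adjusted p-values of these 4 ran from 1.03e-05 to 0.00378 (edgeR).

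Genes induced by ERK included the immediate early genes, and 15 of 16 were tested. In the ED 2 were lower in IVP, beside 4.95% of all genes, FOS (log2 fold change -2.37, SE 0.38, adjusted p = 0.000428 with edgeR) and EGR1 (-1.29, SE 0.39, adjusted p = 0.0469). In the EEM 6 were lower in IVP, beside 1.52% of all genes, led by FOS (-2.90, SE 0.34, adjusted p = 9.38e-06 with edgeR), EGR1 (-2.27, SE 0.30), FOSB (-2.09, SE 0.35) and JUN (-2.12, SE 0.44). FOS ran from 40.7 to 183 CPM in IVP EEM and from 304 to 1250 CPM in IVV EEM. Most ED and EEM libraries came from the same embryos, so these results are not separate. The list's median log2 fold change was -0.54 in discs and also -0.54 in EEM, beside -0.01 and 0.00 over all genes. The targets ETV5 and ETV4, transcription factor genes, were higher in ED than in EEM (log2 fold change 1.99, SE 0.21, and 1.24, SE 0.19, adjusted p of 6.49e-07 and 5.37e-05 with edgeR), whereas FOS, JUN and FOSB were lower (-0.66, -0.84 and -0.62). In the interaction 0 genes of the shedding, signal transduction, negative regulator and ERK lists were called with edgeR, and 0, 3, 4 and 3 of them had an unadjusted p under 0.05. DESeq2 called 1 of them, STAT3.

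The genes whose pattern was most like that of the ligand and the receptor with the highest mean CPM in each tissue were found from the correlation of log2 CPM after removal of the IVP and IVV means, over 16 ED and 14 EEM libraries. For HBEGF these were PTGER4 (r 0.886), GKAP1 (0.854) and RBPJL (0.837) in the ED, and TENT5A (0.922), MANEA (0.901) and DNAAF2 (0.891) in the EEM. For ERBB2 they were MINK1 (0.91), DIAPH1 (0.877) and PRRC2B (0.872) in the ED, and FZR1 (0.953), USP20 (0.943) and QSOX1 (0.935) in the EEM. They were the highest of 13849 genes compared in discs and of 12918 in EEM, and no gene recurred between tissues. The libraries share depth and handling. The choice of HBEGF and ERBB2 used CPM that are not scaled to transcript length, and levels were otherwise not compared between genes.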

How the data were processed

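The authors filtered the paired reads of non-stranded poly(A) libraries with SOAPnuke, aligned these to ARS-UCD1.3 with STAR 2.7.0b and used featureCounts (Subread 2.0.3) to count them by gene. The submitters' processing notes also name FastQC 0.11.9 and Trimmomatic. The deposited values are raw counts for 35092 Entrez IDs in 30 libraries, with 0 columns left unused and no copied libraries. Symbols came from RefSeq (ARS-UCD2.0) by ID, which named 31630 genes, and no position from it is given. The members and gene lists were chosen with earlier results of these data known.

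Groups followed the labels. Each tissue was fitted in edgeR 4.0.16 (R 4.3.3) with TMM, filterByExpr (minimum count 10), 1 surrogate variable from svaseq (sva 3.50.0), and quasi-likelihood tests, with p adjusted by Benjamini-Hochberg over all genes tested and a threshold of 0.05. The study controlled for morphology with sva and gives no number of variables. ED and EEM, and the interaction, used 26 libraries with embryo as block, since titles name the embryo. Deviations of ED and EEM of an embryo correlated with r from -0.244 to 0.705 (median 0.47). Log2 CPM used a prior count of 2. The quasi-likelihood test gives no standard error (SE). Each SE was derived as the absolute log2 fold change divided by the square root of the F statistic. Permutation tests were two-sided, exact or with 100000 draws, and correlations used SciPy. The floor was 3 counts. Within a tissue each library is a separate embryo, and the paper gives only 2 recipient cows and 2 donors. The fits hold no term for the cow and treat embryos as independent. Named were all members, EPGN and NRG1 to NRG4, and per list and comparison at most the 4 called genes with the smallest p. Small counts were more often even than odd, so halved counts were tried, besides DESeq2 1.42.0, limma voom (3.58.1), other normalizations, filters and embryos left out. The scripts were tested on simulated data.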

Additional observations from a re-analysis of the deposited data

Results flagged for a closer look

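ERBB3 was at 19.8 CPM in the disc of VE19, apart from the other 8 IVV discs: its gap to the next value took 0.634 of the range of log2 CPM in the group. The EEM of the same embryo was also the lowest of its group, at 22.3 CPM. Over 37 combinations of member and group, this was the 1 value that stood apart by this measure, and chance marks about 1 in 20 groups. In the ED without VE19, the log2 fold change of ERBB3 for IVP against IVV was 0.01 in place of 0.11, with an adjusted p of 0.987 (edgeR).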

How the results depend on the processing

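TGFA was called in the ED under every alternative other than without VE5. In the ED, BTC was called wherever it passed the filter, which it did only with all 7 discs that express it. With at least 10 counts in every library, or with halved counts, BTC was not tested and 1 member was called, and with an embryo left out 1 to 2 members were (1 without VE24, VE26, VE28, VE29, VE3, VE4, VE5 or VE6). Genes called in the ED numbered 998, but 1512 with DESeq2, 1846 without a filter on low counts, 431 with at least 10 counts in every library, and 639 (without VE29) to 1160 with an embryo left out. In the EEM they numbered 561, but 1211 without a filter and 275 with at least 10 counts in every library.

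For ED against EEM, 3 members were called with DESeq2 (AREG, TGFA and ERBB3), 2 without a filter (AREG and BTC), and 1 to 2 with an embryo left out (TGFA besides AREG without IVP11 or IVPF14). Shares of all genes called with DESeq2 or without a filter are not given here, so those counts have no background beside them. The paired fit called 3124 genes, or 2414 (without VE5) to 3722 (without IVP11) with an embryo left out. With no replicate block it called 1553 genes, and with at least 10 counts in every library 1828. AREG was called without the block too (adjusted p = 0.0227 with edgeR), whereas DUSP6 (adjusted p = 0.295), FOS (0.214) and JUN (0.153) were not. In the interaction 1 member, TGFA, was called with DESeq2 (adjusted p = 0.00432), without a filter (0.0113), or without VE24 or VE3, so 0 to 1 with an embryo left out. BTC was tested in the interaction, in which VE6 took no part, and was not called (log2 fold change -4.44, SE 34.3, adjusted p = 0.993 with edgeR). That SE is derived from the F statistic, and the interaction fit says nothing about BTC. Genes called there numbered 172, but 435 with DESeq2, 356 without a filter, 11 with at least 10 counts in every library and 101 (without VE29) to 211 with an embryo left out.

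Only fitted changes that were not called changed sign. For EREG in the ED these were 0.08 with 2 surrogate variables, 0.02 with the title letter as a term, 0.09 with limma voom, and -0.26 to 0.45 with an embryo left out. For ERBB2 in the ED they were 0.07 with no surrogate variable, 0.17 with 2, 0.00 with halved counts, and -0.15 to 0.08 with an embryo left out. In the EEM, EGF was at -0.07 with no surrogate variable. With an embryo left out, EGF ran from -0.11 to 0.36, ERBB2 from -0.05 to 0.26 and ERBB3 from -0.02 to 0.22. Between tissues EREG ran from -0.14 to 0.07 and HBEGF from -0.13 to 0.03. The cause of these shifts was not tested, except that a stricter filter tests fewer genes and BTC falls under it.

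STAT5A and EGR1 in the ED lay close to the threshold and missed it in 7 and 2 of 9 alternative settings, and were called in 5 and 8 of 16 fits with an embryo left out. Depth limits EGF, ERBB4 and BTC most, since each held at most 61 counts per library. The changes named here were otherwise on the same side of the threshold in most settings, with the exceptions given above and in the report.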
